A study of Mus musculus with 6 samples.

Results

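The microRNAs (miRNAs) described here are 6 of the 620 in the deposited table and belong to 2 families of related small RNAs: miR-148a-3p, miR-148a-5p, miR-148b-3p and miR-152-3p of the miR-148/miR-152 family, and miR-26a-5p and miR-26b-5p of the miR-26 family. They were selected by name and not by a cut on their level, though with earlier results of these data known. The study sequenced small RNA from extracellular vesicles, the membrane-bound particles that cells release, of peripheral blood mononuclear cells (PBMCs) of wild-type mice. In the control group, 3 libraries came from vesicles labelled untreated. The IS group had 3 libraries labelled as IS-stimulated, an abbreviation the labels leave unexplained, and all 6 libraries share the wild-type genotype and the vesicle source. The labels give neither the age, strain or sex of the mice nor whether replicates came from separate mice or cultures; the p-values reflect only how these libraries scatter, which could be technical scatter. The series title names salvianolic acid B, with which no library here is labelled as treated.

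A miRNA hairpin is cut into a duplex whose 2 strands, or arms, are called 5p and 3p; usually 1 arm, the guide, is loaded into an Argonaute protein and the other, the passenger, is degraded. Target choice rests mostly on the seed, bases 2 to 8 of the guide, so miRNAs with 1 seed can repress overlapping sets of messages. The miR-148/miR-152 family is known for repressing the DNA methyltransferase Dnmt1, and miR-148a is abundant in liver and rises as B cells become plasma cells. The miR-26 family is known for repressing the histone methyltransferase Ezh2 and lies within the genes of the small CTD phosphatases.

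The mature sequences of all 6 members are shown because the seed defines the families and the few bases that differ are what separates the counts of paralogues. They are RefSeq sequences (GRCm38.p6), written 5′ to 3′ with the seed in capitals.
miR-148a-3p: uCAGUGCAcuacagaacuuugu
miR-148b-3p: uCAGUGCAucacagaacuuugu
miR-152-3p: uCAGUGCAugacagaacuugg
miR-148a-5p: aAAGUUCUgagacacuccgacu
miR-26a-5p: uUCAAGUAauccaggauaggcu
miR-26b-5p: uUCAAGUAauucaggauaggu

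In RefSeq the seed of miR-148a-3p belongs to 3 mouse miRNAs, and all 3 are in the deposited table. Counted from 1 at the 5′ end, miR-148b-3p differs from miR-148a-3p by C9U and U10C. The differences of miR-152-3p from miR-148a-3p are C9U, U10G and U20G, and it is 21 rather than 22 bases long. In the other family, miR-26b-5p differs from miR-26a-5p by C11U and C21U and is 1 base shorter. How reads that fit more than 1 of these sequences were counted is not given in the sources used here, so a small exchange of counts between paralogues was not tested. No other row of the table had counts like those of a guide-strand member (within 2 counts or 6% in every library).

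The 6 hairpins are spread over 6 chromosomes (GRCm38.p6, 1-based, with the same positions in GENCODE M21). Mir148a lies between genes at chr6:51269812-51269910 (minus strand), with Nfe2l3 as the nearest protein-coding gene. Mir148b is in an intron of Copz1 (chr15:103285125-103285221, plus strand) and Mir152 in an intron of Copz2 (chr11:96850393-96850465, plus strand), genes for paralogous subunits of the COPI vesicle coat. The sequence of miR-26a-5p is encoded at 2 places, in Mir26a-1 in an intron of Ctdspl (chr9:119031796-119031885, plus strand) and in Mir26a-2 (chr10:126995530-126995613, plus strand), which overlaps annotated exons of Ctdsp2 transcripts. Mir26b sits in an intron of Ctdsp1 (chr1:74394310-74394394, plus strand). Identical mature sequences from Mir26a-1 and Mir26a-2 cannot be told apart in the miR-26a-5p row.

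The smallest library held 125731 counts and the largest 435468. In counts per 1000000 counts of a library (CPM), a single count was worth 2.30 to 7.95 CPM, while the limit of 3 counts, called the floor below, was 6.89 to 23.9 CPM. Of the 6 members, 5 passed the filter on low counts and were tested, as were 206 miRNAs in all. Only miR-148a-5p did not pass.

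Both families were carried by 1 paralogue, miR-148a-3p and miR-26a-5p, and in neither did the IS libraries separate from the control libraries. miR-148a-3p stood at 123617, 170924 and 78688 CPM in controls 1 to 3 and at 142089, 43350 and 163738 CPM in IS 1 to 3. It was the most abundant miRNA of the table in control 1, control 2, IS 1 and IS 3, the 3rd in control 3 and the 7th in IS 2. IS 2 was thus the lowest library and control 3 the next lowest, while the other 2 IS libraries lay within the range of the control group. The group means were 124410 ± 46123 CPM for control and 116393 ± 64176 CPM for IS (SD, n = 3 per group), and the edgeR quasi-likelihood log2 fold change of IS over control was -0.11 (SE 0.60, Benjamini-Hochberg adjusted p = 0.996). Without IS 2 it was 0.23.

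The minor paralogues of this seed were far lower. For miR-148b-3p the levels were 411, 1335 and 756 CPM in controls 1 to 3 (111, 314 and 329 counts) and 597, 690.1 and 1209 CPM in IS 1 to 3 (from 89 counts in IS 1 to 219 in IS 2). Its 3 IS values all fell inside the control range, and the log2 fold change was 0.02 (SE 0.53, edgeR adjusted p = 0.996). For miR-152-3p the levels were 351 CPM, 1237 CPM and 909 CPM in controls 1 to 3 (95, 291 and 396 counts) and 315 CPM, 325 CPM and 1018 CPM in IS 1 to 3 (47, 103 and 128 counts). IS 1 and IS 2 lay below all control libraries and IS 3 among them, with a log2 fold change of -0.62 (SE 0.60, 95% interval -1.94 to 0.70, edgeR adjusted p = 0.996). It was -1.52 without IS 3 and -1.24 without control 1, and between -0.61 and -0.41 with any other library left out. The median of all tested miRNAs also fell in those fits, to -0.23 without IS 3 and -0.27 without control 1.

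In the miR-26 family, miR-26a-5p stood at 45377, 71801 and 23875 CPM in controls 1 to 3 and at 36347, 24461 and 58029 CPM in IS 1 to 3. Control 3 and IS 2 were again the lowest libraries, and control 2 and IS 3 the highest. miR-26a-5p ranked between the 3rd (control 2) and the 12th place (control 3) among rows, some of which share their edgeR values (miR-122-5p and miR-122b-3p). The log2 fold change was -0.28 (SE 0.55, edgeR adjusted p = 0.996), and it was -0.87 without IS 3 and -0.094 without IS 2. Its paralogue miR-26b-5p stood at 8833, 7104 and 4232 CPM in controls 1 to 3 and at 6314, 5433 and 11071 CPM in IS 1 to 3, ranking from the 15th to the 25th place. Here too the groups overlapped, with IS 3 highest and control 3 lowest, and the log2 fold change was 0.09 (SE 0.51, edgeR adjusted p = 0.996), or -0.43 without IS 3.

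**Figure D1:**
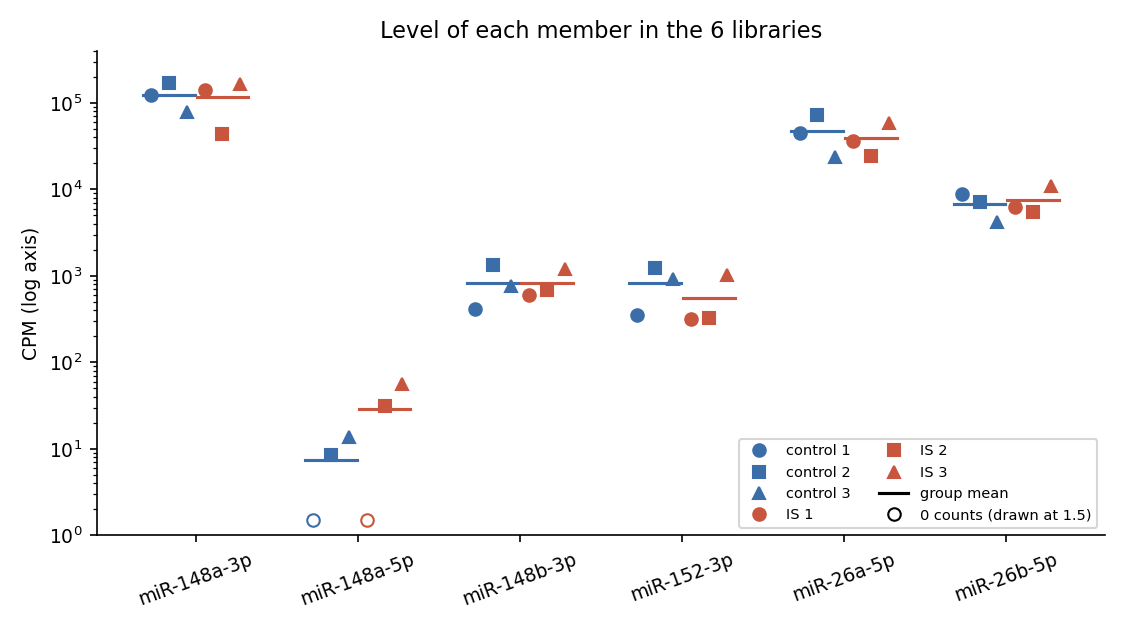
Level of each member in CPM (log axis) in the 3 control (blue) and 3 IS (red) libraries, with a line at each group mean and open symbols for libraries with 0 counts. miR-148a-3p lies between 43350 and 170924 CPM, and in all 6 members the groups overlap.

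Of the 5 tested members, 0 passed an edgeR adjusted p of 0.05, as did 0 of all 206 miRNAs tested (0% called). In edgeR 3 of the 206 had an unadjusted p under 0.05. These were miR-744-5p and the rows miR-1a-3p and miR-1b-5p, which had the same log2 fold change and SE. DESeq2, run without the filter on low counts, called 0 of 618 miRNAs, and 14 of the 618 had an unadjusted p under 0.05. Likewise 0 of the 5 tested members had groups that did not overlap in CPM, against 1.46% of the 206 tested miRNAs. Log2 fold changes below 0 were found for 3 of the 5, beside 47.1% of all tested. The median of the 5 was -0.11, and that of all tested miRNAs 0.022. Confidence intervals were wide: for miR-148a-3p the 95% interval of the log2 fold change ran from -1.43 to 1.22, and for miR-26b-5p, the narrowest of the 5, from -1.02 to 1.21. A fall of 1 log2 unit lay within the interval of all 5 members and a rise of 1 within that of 3 (not miR-152-3p or miR-26a-5p), so no member was shown to be unaffected.

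**Figure D2:**
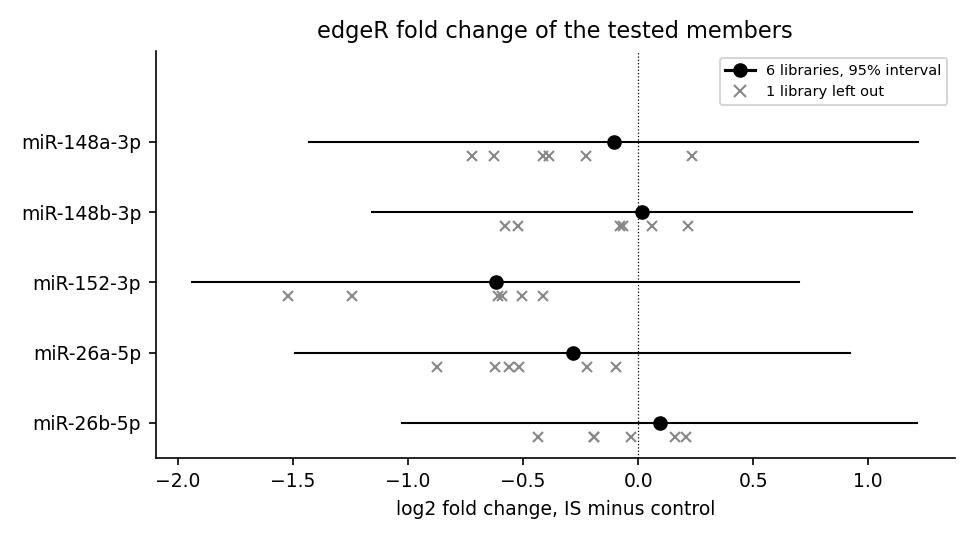
edgeR log2 fold change of IS over control for the 5 tested members, with 95% confidence intervals (dots and lines) and the values with 1 library left out (crosses). Every interval spans 0, and the crosses of miR-148a-3p, miR-148b-3p and miR-26b-5p fall on both sides of 0.

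The dominance of miR-148a-3p within its seed family was nearly complete in every library. Of the counts of miR-148a-3p, miR-148b-3p and miR-152-3p together, it took 99.4%, 98.5% and 97.9% in controls 1 to 3 and 99.4%, 97.7% and 98.7% in IS 1 to 3. The lowest of these, in IS 2, had a 95% Clopper-Pearson interval of 97.5 to 98.0%, and the highest, in control 1, of 99.3 to 99.5%, so libraries differed by more than counting error. Because the reads carry no molecular identifiers, such intervals and floors cover counting error only. Group means were 98.6 ± 0.734% for control and 98.6 ± 0.828% for IS (n = 3 each, two-sided exact permutation test, p = 0.9, where 0.1 is the smallest that 3 libraries against 3 allow). As a ratio, miR-148a-3p outnumbered miR-148b-3p by 62.8 (IS 2) to 301 (control 1) and miR-152-3p by 86.5 (control 3) to 451 (IS 1).

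In the miR-26 family the leading paralogue held less of the total. miR-26a-5p took 83.7%, 91.0% and 84.9% of the counts of miR-26a-5p plus miR-26b-5p in controls 1 to 3, and 85.2%, 81.8% and 84.0% in IS 1 to 3. Control 2 stood apart, with a ratio of miR-26a-5p to miR-26b-5p of 10.1 (95% interval 9.61 to 10.6), while the other 5 libraries lay between 4.50 and 5.76. The group means were 86.5 ± 3.90% and 83.7 ± 1.71% (n = 3 each, exact permutation test, p = 0.5), a difference of -2.88 percentage points that was -0.656 without control 2. In 6 of 6 libraries the share of miR-148a-3p in its family was above that of miR-26a-5p in its own.

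The 2 minor paralogues of the CAGUGCA seed, miR-148b-3p and miR-152-3p, stood in a ratio of 0.831 (control 3) to 1.17 (control 1) in the control libraries and of 1.19 (IS 3) to 2.13 (IS 2) in the IS libraries. This pair was chosen after its values had been seen, among the 10 pairs of tested members. Of the counts of both, miR-148b-3p took 53.9%, 51.9% and 45.4% in controls 1 to 3 and 65.4%, 68.0% and 54.3% in IS 1 to 3, so the groups did not overlap. The margin was narrow, since the interval of IS 3 (48.3 to 60.2%, 95% Clopper-Pearson) spans the values of control 1 and control 2. On the log2 scale the ratio of miR-148b-3p to miR-152-3p was 0.02 ± 0.26 for control and 0.75 ± 0.44 for IS (n = 3 each, two-sided exact permutation test, p = 0.1, the smallest this design allows). The difference of 0.73 lay between 0.56 (without IS 2) and 0.98 (without IS 3) with a library left out. Groups that do not overlap fix this p and the sign of each of these differences, so neither adds to the separation already seen. Groups without overlap were found in 1 of the 10 member pairs, and in 3.48% of the 21115 pairs of tested miRNAs. The ratio does not depend on the library scaling.

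**Figure D3:**
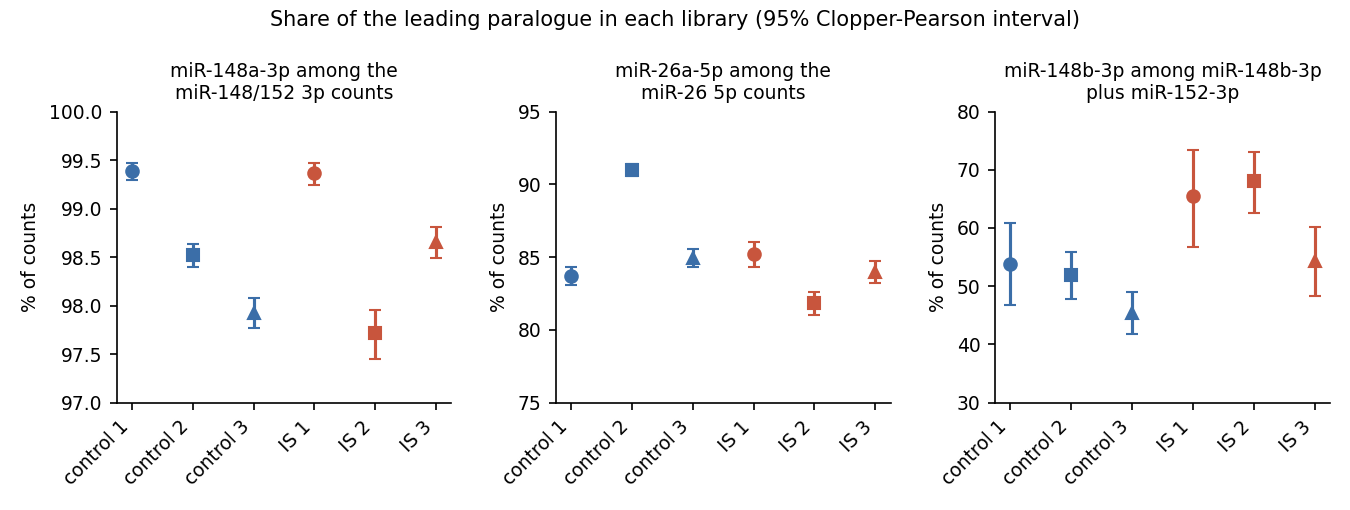
Share of counts (%) taken by miR-148a-3p within its seed family, by miR-26a-5p within the miR-26 family, and by miR-148b-3p within the sum of miR-148b-3p and miR-152-3p, in each control (blue) and IS (red) library with 95% Clopper-Pearson intervals. The axes do not start at 0; miR-148a-3p stays between 97.7 and 99.4%, and control 2 stands apart at 91.0% for miR-26a-5p.

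The arms of miR-148a are shown in the hairpin to make clear which strands the arm ratio compares. The Mir148a hairpin (RefSeq, GRCm38.p6, minus strand) reads as follows, with the 5p arm and then the 3p arm in capitals.
Mir148a: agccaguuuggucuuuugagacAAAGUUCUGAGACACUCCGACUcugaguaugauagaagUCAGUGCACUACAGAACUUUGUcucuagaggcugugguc

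Nearly all reads of this hairpin came from the 3p arm. The 5p arm, miR-148a-5p, had 0, 2 and 6 counts in controls 1 to 3 and 0, 10 and 7 counts in IS 1 to 3, or 25 counts in all beside 163434 of miR-148a-3p (0.0153% of both arms). Where counts were above the floor, the 3p arm exceeded the 5p arm by 5711 in control 3 (95% interval 2624 to 15563), 1376 in IS 2 (748 to 2869) and 2941 in IS 3 (1427 to 7316). In control 2, with 2 counts, the ratio was 20104 (5565 to 166007). With 0 counts, set against the floor of 3 counts per library, the 3p arm was 11139-fold higher in control 1 and 7067-fold higher in IS 1. The 5p share at that floor was 0.00898% and 0.0142%. By the 95% interval used for the other libraries, the lower bounds were 9059 and 5747, and the 5p share could reach 0.0110% and 0.0174%. The groups overlapped. On the log2 scale with 0.5 added to both counts, the arm ratio was 14.1 ± 1.84 for control and 12.4 ± 2.64 for IS (n = 3 each, exact permutation test, p = 0.4); the libraries with 0 counts take their value from the added 0.5, and the difference of -1.74 was -0.72 without IS 2, -0.79 without control 1 and -3.23 without IS 1.

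The other arms of these hairpins were all scarce, and 0 of the 4 found in the table, of 5 listed, passed the filter. They are passenger strands, and miR-26a-1-3p was the one with no row. miR-148b-5p had 11, 3 and 21 counts in controls 1 to 3 and 2, 8 and 0 counts in IS 1 to 3. That made 3.57% of the counts of both miR-148b arms, from 0.946% in control 2 to 9.02% in control 1 (95% interval 4.59 to 15.6%) among libraries with counts. In IS 3, which had 0, the floor of 3 counts stood for 1.97%, and the 95% interval reached 2.40%. In sum the 5p arms went against the order of the 3p arms: miR-148a-5p and miR-148b-5p, which share the seed AAGUUCU, had 25 and 45 counts in all, although miR-148a-3p outnumbered miR-148b-3p by 62.8 or more in each library. miR-148b-5p had the more counts of the pair in the 3 control libraries and IS 1, and miR-148a-5p in IS 2 and IS 3. miR-152-5p had 2 counts in IS 2 and 0 elsewhere, and miR-26b-3p had 2 counts in control 3 and 0 elsewhere. miR-26a-2-3p, the passenger strand by which the Mir26a-2 hairpin can be told from Mir26a-1, had 13, 0 and 14 counts in controls 1 to 3 and 0, 13 and 0 in IS 1 to 3, while miR-26a-5p had 5423 or more in each. At these counts no difference between the groups was detectable.

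**Figure D4:**
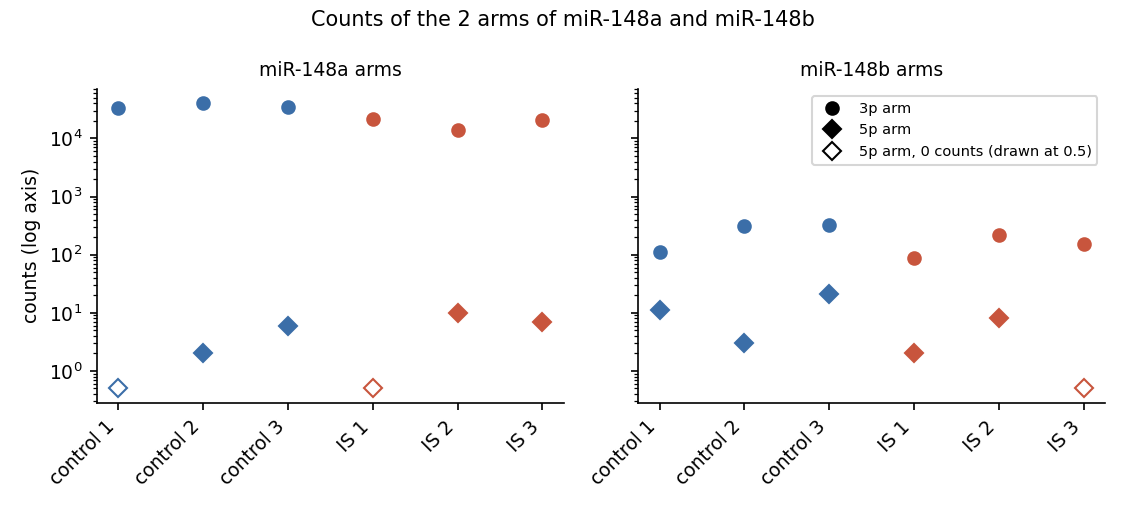
Counts (log axis) of the 3p arm (circles) and the 5p arm (diamonds) of miR-148a and miR-148b in each control (blue) and IS (red) library; open diamonds mark 0 counts. The 5p arms have at most 10 counts for miR-148a and 21 for miR-148b, while the 3p arm of miR-148a has 13756 to 40207.

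Summed over the guide strands, the miR-148/miR-152 family took 124379, 173496 and 80353 CPM in controls 1 to 3 and 143001, 44365 and 165965 CPM in IS 1 to 3. The group means of 126076 ± 46595 and 117777 ± 64605 CPM differed by less than their spread (n = 3 each, exact permutation test, p = 0.9), and the difference of -8299 CPM turned to 28407 without IS 2 and to 15411 without control 2. The miR-26 family took 54211, 78905 and 28108 CPM in controls 1 to 3 and 42660, 29894 and 69100 CPM in IS 1 to 3. Its means were 53741 ± 25402 and 47218 ± 19996 CPM (n = 3 each, exact permutation test, p = 0.8), and the difference of -6523 CPM turned to 6059 without control 2 and to 2139 without IS 2. On the log2 scale the ratio of the first family to the second was 1.28 ± 0.20 for control and 1.19 ± 0.59 for IS (n = 3 each, exact permutation test, p = 0.9). It was lowest in IS 2 (0.57) and highest in IS 1 (1.75), both in the IS group, and the difference of -0.09 turned to 0.22 without IS 2 and to 0.026 without control 3.

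Between libraries the 5 tested members varied more than counting error. From the lowest to the highest library, levels differed 3.94-fold for miR-148a-3p, 3.25-fold for miR-148b-3p, 3.93-fold for miR-152-3p, 3.01-fold for miR-26a-5p and 2.62-fold for miR-26b-5p. The coefficient of variation of miR-148a-3p was 37.1% for control and 55.1% for IS, where counting alone gives 0.853% at its lowest count. For miR-26b-5p it was 34.6% and 39.9%, beside 3.26% from counting. Set against all tested miRNAs, whatever their level, the SDs of the members were not among the largest. The SD of log2(CPM + 1) over the 6 libraries was 0.49 for miR-26b-5p, 0.64 for miR-148b-3p, 0.65 for miR-26a-5p, 0.77 for miR-148a-3p and 0.92 for miR-152-3p, and the median of the 206 was 0.90. Of those 206, 35 had a smaller SD than miR-26b-5p, 78 than miR-148a-3p and 107 than miR-152-3p. Counting error raises the SD of scarce miRNAs, and a comparison with miRNAs of like level was not made.

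Markers of the labelled source, white blood cells, were present, and their sum, most of it miR-142a-5p, was highest in the low libraries of both families. The 6 markers summed to 22167 CPM in control 3 and 26670 in IS 2, and to 6003 to 11360 CPM in the other 4 libraries. Control 3 and IS 2 were the highest libraries for miR-142a-5p, miR-142a-3p, miR-150-5p and miR-155-5p, but not for miR-223-3p (68.9 and 18.9 CPM, against 255 CPM in IS 3) or miR-342-3p. Of these markers 5 were above 0 in every library and miR-155-5p was at 0 in IS 1. In every library the white blood cell sum was below the red cell sum and below the liver sum. The 4 red cell markers, led by miR-451a and miR-486a-5p, summed to 186873 CPM in control 3 and 223132 in IS 2, and to 93435 to 148261 CPM elsewhere, ranging from 93435 to 186873 CPM in the control and from 120628 to 223132 CPM in the IS group. The sum of the 3 platelet and vessel wall markers, nearly all of it miR-126a-3p and miR-191-5p, was lowest in the same libraries, with 10795 CPM in control 3 and 7009 in IS 2 against 15945 to 29515 CPM elsewhere. The third marker, miR-126a-5p, did not share this order, with 62.9, 38.3 and 126.3 CPM in controls 1 to 3 and 26.8, 59.9 and 247 CPM in IS 1 to 3 (4 to 55 counts). The 3 liver markers, of an organ rich in miR-148a, summed to 24444 to 113075 CPM among controls and to 32935 to 107612 CPM in IS. Nearly all of this sum was miR-122-5p, and it was highest in control 1 and IS 1. The other liver markers went the other way: miR-192-5p (466 and 503 CPM) and miR-194-5p (62.9 and 87.1 CPM) were lowest in control 1 and IS 1. Among muscle markers the sum was 311 to 2194 CPM among controls and 1604 to 4698 CPM in IS. By marker, the control and IS ranges were 185 to 436 and 359 to 1257 CPM for miR-1a-3p. They were 96.2 to 1892 and 771 to 3485 CPM for miR-206-3p, but 25.5 to 131 and 23.9 to 123 CPM for miR-133a-3p. CPM are shares of a total, so a rise of 1 group of miRNAs lowers the others, and fewer vesicles of 1 source cannot be told apart from less RNA per vesicle; the part of other cell types in the spread of the members was not tested. With the listed red cell and liver markers left out of the library totals, the family differences were -4976 and -5479 CPM. Those totals still held miR-122b-3p, with the same edgeR log2 fold change (-0.061) and SE (0.79) as miR-122-5p. They also held miR-486b-3p, whose log2 fold change (0.41) was near that of miR-486a-5p (0.40). Both rows of such a pair count in every library total behind the CPM, so the signal of these markers was not fully left out.

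**Figure D5:**
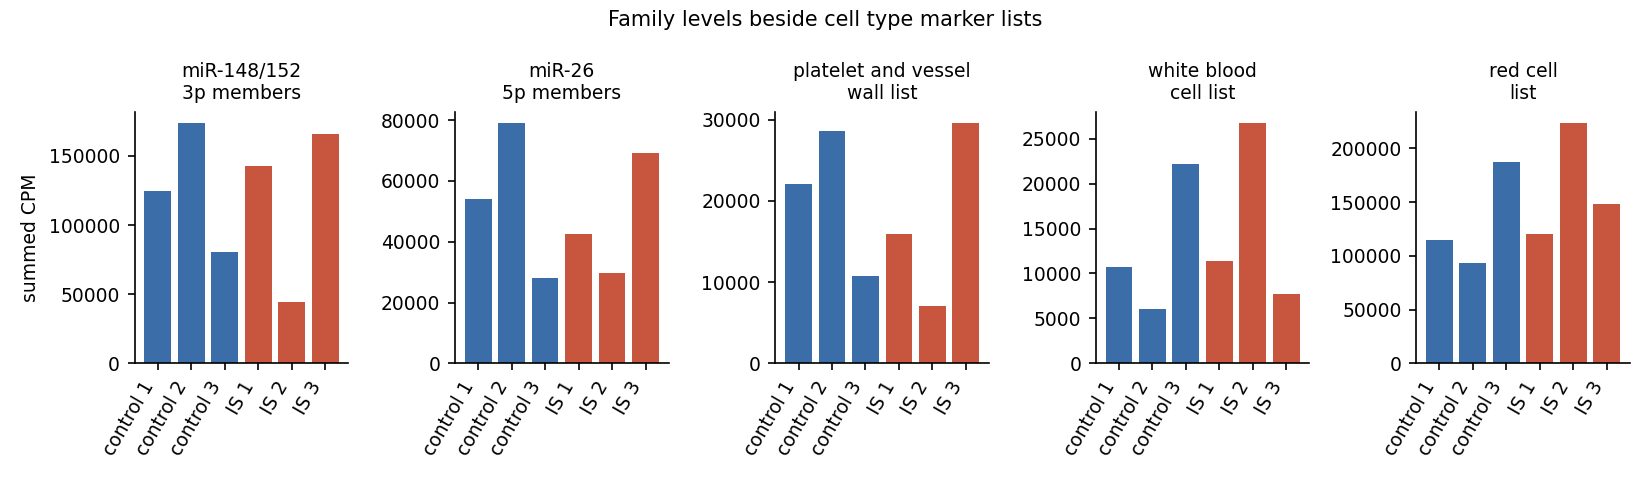
Summed level (CPM) of the miR-148/miR-152 guide strands, the miR-26 guide strands and 3 marker lists in each control (blue) and IS (red) library; each panel has its own axis from 0. Control 3 and IS 2 are the lowest libraries for both families and for the platelet and vessel wall list and the highest for the white blood cell and red cell lists.

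The miRNA whose level followed miR-148a-3p most closely was miR-493-5p, of the imprinted Dlk1-Dio3 cluster. The SD over the 6 libraries of their difference in log2(CPM + 1) was 0.14, and the median over the other 205 tested miRNAs was 1.16. It stood at 359, 480.4 and 188 CPM in controls 1 to 3 and at 395, 136 and 509 CPM in IS 1 to 3. The next were miR-24-2-5p (SD 0.27) and miR-3074-2-3p (0.27), which have nearly the same counts in every library, then the vessel wall miRNA miR-126a-3p (0.31) and miR-10a-5p (0.32). miR-26a-5p came in place 8 (0.39) and miR-26b-5p in place 26 (0.58), whereas the paralogues with the seed of miR-148a-3p came later, miR-148b-3p in place 52 (0.82) and miR-152-3p in place 68 (0.91). The closest to miR-26a-5p were miR-139-5p (0.19), let-7f-5p (0.19), miR-191-5p (0.28), let-7a-5p (0.32) and miR-493-5p (0.33), with miR-26b-5p in place 11 (0.41) and a median of 1.08 over all. Of these, miR-126a-3p and miR-191-5p are also in the platelet and vessel wall list. The distances are descriptions over 6 libraries, both miRNAs of a pair share the depth and scaling of each library, and a low count raises the distance of a scarce miRNA.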

How the data were processed

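Vesicle RNA was isolated with the exoRNeasy Maxi kit and libraries were made with the NEBNext Multiplex Small RNA set, per the labels' protocols. The submitters' processing notes list CASAVA 1.8 and Bowtie but not what each did. The genome build, miRNA database release, filters and strand use were not given in the sources used here. In 1 table, the authors deposited a read count and a TPM value for each miRNA and library, per the file headers. The deposited TPM equals the count over the library total times 1000000 (largest difference 4.8e-10) and is called CPM here.

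Library names in the labels gave the groups and replicate numbers. All counts were tested with the edgeR quasi-likelihood test with TMM factors, filterByExpr (minimum count 10, minimum total 15) and Benjamini-Hochberg adjustment over the 206 miRNAs that passed. The SE was the log2 fold change divided by the square root of F. Shares, family sums and ratios were compared by exact two-sided permutation over libraries. Named were all members, the other arms of their hairpins, miRNAs sharing a seed, and the 5 miRNAs closest to each leading paralogue. The members, lists and tests were chosen with earlier results of these data known. As alternatives, no filter, unadjusted library totals, RLE factors, DESeq2, a block on the replicate number, omission of each library, and limma on log2 of the deposited TPM plus 1 or 0.5 were run; for single values, other sums, scalings and pseudocounts. Scripts were tested on simulated data, for edgeR with less spread between libraries than found here, so power in these data was not measured. RefSeq sequences matched 6 of 6 members by name. Software: edgeR 4.0.16, DESeq2 1.42.0 and limma 3.58.1 in R 4.3.3, with scipy 1.17.1 and matplotlib 3.10.9 in Python 3.11.15.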

Additional observations from a re-analysis of the deposited data

How the results depend on the processing

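The count of members past the threshold was 0 under all 13 alternatives, as was the count over all miRNAs tested, so this is not particular to the members. The fold changes of miR-152-3p and miR-26a-5p stayed below 0 in all of theirs, from -1.52 to -0.41 and from -0.87 to -0.094. With a library left out, the log2 fold change ran from -0.72 to 0.23 for miR-148a-3p, from -0.58 to 0.22 for miR-148b-3p and from -0.43 to 0.21 for miR-26b-5p, and that of miR-148b-3p was -0.0044 with library totals alone. Refitting without a library also moved the median of all tested miRNAs, to between -0.27 and 0.050. Leaving out a library gave differences of -32393 to 28407 CPM for the miR-148/miR-152 level, -19340 to 6059 CPM for the miR-26 level, -0.426 to 0.399 percentage points for the miR-148a-3p share, -0.37 to 0.22 for the log2 family ratio, -4.30 to -0.656 percentage points for the miR-26a-5p share and -3.23 to -0.72 for the log2 arm ratio. The cause of the turns was not tested. An arm ratio with nothing added was not run, since 2 libraries had 0 counts. Depth limits the passenger strands most, where most counts were near the floor of 3.

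No pairing by replicate number was seen in the levels. Same-numbered libraries had correlations of 0.36, -0.41 and -0.17 between their deviations from the group means, and control 3 correlated best with IS 2 (0.58). Deviations from a mean of 3 libraries are tied to each other, so these values cannot decide whether same-numbered libraries share an origin. With the number as a replicate block, 0 members and 0 of 206 miRNAs passed the threshold, and every difference in a share, level or ratio was the same mean difference, with an exact sign-flip p from 0.25 to 1 (the smallest possible is 0.25).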
